A study of Mus musculus with 9 samples.

Results

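The genes described here are 44 mouse genes that interferons are known to induce, taken as a given list of gene symbols. Of these, 43 have a row among the 20690 named genes of the deposited log2 expression table and were followed here, while Igtp is not analysed here. The measurements come from 9 Affymetrix Mouse Gene 1.0 ST arrays, 3 each of 2 kinds of glioma line and of neural stem and progenitor cultures (NSC). All cultures were grown from the subventricular zone of mouse brains electroporated with plasmids, in serum-free medium with EGF and FGF, and all received the plasmids TagBFPnls-V5 and pBase. Hras lines 1, 2 and 3 also received EGFP-Hras G12V, and Erbb2 lines 1, 2 and 3 received EGFP-P2A-Erbb2 V664E. NSC 1 received a membrane EGFP, NSC 2 an EGFP fused to histone 3.3, and NSC 3 nothing further, although its source label, like all others, speaks of EGFP purification. The description of Hras line 3 carries the number 4, and the title was followed. The strain is CD1 for 8 arrays and C57/Bl6 with floxed Dnm2 for NSC 3, so strain and reporter cannot be told apart in that array. Each line is 1 array from a sorted culture. The labels do not say that lines came from different animals, and the tests therefore see no more than the spread among the cultures at hand. Ages are not given in the labels.

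Interferons are secreted proteins that warn neighbouring cells of infection. Type I interferons bind the receptor Ifnar1 and Ifnar2 and type II interferon binds Ifngr1 and Ifngr2, and the kinases Jak1, Jak2 and Tyk2 then activate transcription factors, Stat2 among them. Together with Irf9, Stat2 is part of a complex that binds the interferon-stimulated response element in promoters and switches on antiviral effectors, sensors of viral RNA, immunity GTPases and the factors of the pathway itself. In the brain the response is best known from infection and inflammation, and many of its genes have a low level in unstimulated cells.

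Promoters are shown for 6 genes, because 5 of them carry a motif through which this gene class is known to be induced, and to set beside them Ifi35, which lies above NSC in every glioma line below. The sequences are the 250 bases before the transcription start, from RefSeq's annotation of GRCm38.p6, written 5′ to 3′ on the gene's strand. Capitals mark matches to GAAA, any 2 bases and GAAA again on either strand, a core of the interferon-stimulated response element, and overlapping matches run together.
Isg15 (chr4:156200819-156201068, minus strand): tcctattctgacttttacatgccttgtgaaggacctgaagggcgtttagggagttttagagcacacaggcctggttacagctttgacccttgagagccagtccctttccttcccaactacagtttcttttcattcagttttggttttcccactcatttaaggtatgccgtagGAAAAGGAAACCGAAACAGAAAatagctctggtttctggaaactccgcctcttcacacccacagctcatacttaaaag
Ifit1 (chr19:34640639-34640888, plus strand): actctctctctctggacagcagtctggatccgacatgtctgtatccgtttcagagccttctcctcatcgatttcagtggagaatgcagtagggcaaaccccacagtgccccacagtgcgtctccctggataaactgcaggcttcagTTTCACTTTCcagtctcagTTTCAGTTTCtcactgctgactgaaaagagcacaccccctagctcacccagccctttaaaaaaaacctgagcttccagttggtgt
Ifit3 (chr19:34583279-34583528, plus strand): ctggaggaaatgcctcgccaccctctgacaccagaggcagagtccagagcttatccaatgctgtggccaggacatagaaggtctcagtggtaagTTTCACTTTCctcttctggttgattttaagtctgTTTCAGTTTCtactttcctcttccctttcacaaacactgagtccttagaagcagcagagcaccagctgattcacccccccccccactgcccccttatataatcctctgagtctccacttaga
Irgm1 (chr11:48871421-48871670, minus strand): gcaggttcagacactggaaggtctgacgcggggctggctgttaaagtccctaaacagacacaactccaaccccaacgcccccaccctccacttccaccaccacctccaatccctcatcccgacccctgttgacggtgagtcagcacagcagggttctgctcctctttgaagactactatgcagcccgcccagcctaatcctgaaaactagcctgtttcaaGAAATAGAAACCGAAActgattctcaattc
Gbp3 (chr3:142559794-142560043, plus strand): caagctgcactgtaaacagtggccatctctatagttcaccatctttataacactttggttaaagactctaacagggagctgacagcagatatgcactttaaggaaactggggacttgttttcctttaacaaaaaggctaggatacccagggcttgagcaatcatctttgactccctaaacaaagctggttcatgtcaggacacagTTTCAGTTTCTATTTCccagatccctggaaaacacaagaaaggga
Ifi35 (chr11:101448162-101448411, plus strand): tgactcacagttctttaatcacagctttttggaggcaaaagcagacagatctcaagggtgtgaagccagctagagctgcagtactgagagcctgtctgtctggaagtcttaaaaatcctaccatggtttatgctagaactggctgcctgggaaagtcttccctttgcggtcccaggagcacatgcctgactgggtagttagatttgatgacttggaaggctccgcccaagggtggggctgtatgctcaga

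Isg15 holds 3 overlapping matches, which begin at positions -78, -72 and -66 from the start. Ifit1 and Ifit3 hold 2 separate matches each, at -104 and -85 in Ifit1 and at -156 and -122 in Ifit3. Irgm1 and Gbp3 hold 2 overlapping matches each, at -30 and -24 in Irgm1 and at -45 and -39 in Gbp3, and the Ifi35 stretch holds 0 of them. Promoter windows of 300 bases, 250 before and 50 after the start, were found for 32 of the 43 genes, 39 windows in all, since some genes have several starts. Of these windows 15, or 38.5%, hold that GAAA pair, against 3.44% of the 32851 windows in the table. The motif TTCNNNGAA, which Stat dimers bind and which reads the same on both strands, is in 9 windows, or 23.1%, against 8.3% of all windows, and the window of Ifi35 holds 1 such match. A match is a description of the letters, and no match says only that they are not in that window.

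The 43 genes did not form a shared level within either kind of glioma line. They were far above NSC in Hras line 3, Erbb2 line 3 and Hras line 2, and close to NSC in Hras line 1, Erbb2 line 1 and Erbb2 line 2. The median difference of the genes from the mean of the NSC arrays was 0.14, 1.45 and 3.09 log2 units in Hras lines 1, 2 and 3, and -0.27, -0.21 and 2.16 in Erbb2 lines 1, 2 and 3, against 0.11, -0.18 and 0.04 in NSC 1, 2 and 3. Over all genes the same median lay between -0.16 and 0.33 on every array. In bulk RNA, a higher level in every cell and more cells that express the gene cannot be told apart.

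**Figure D1:**
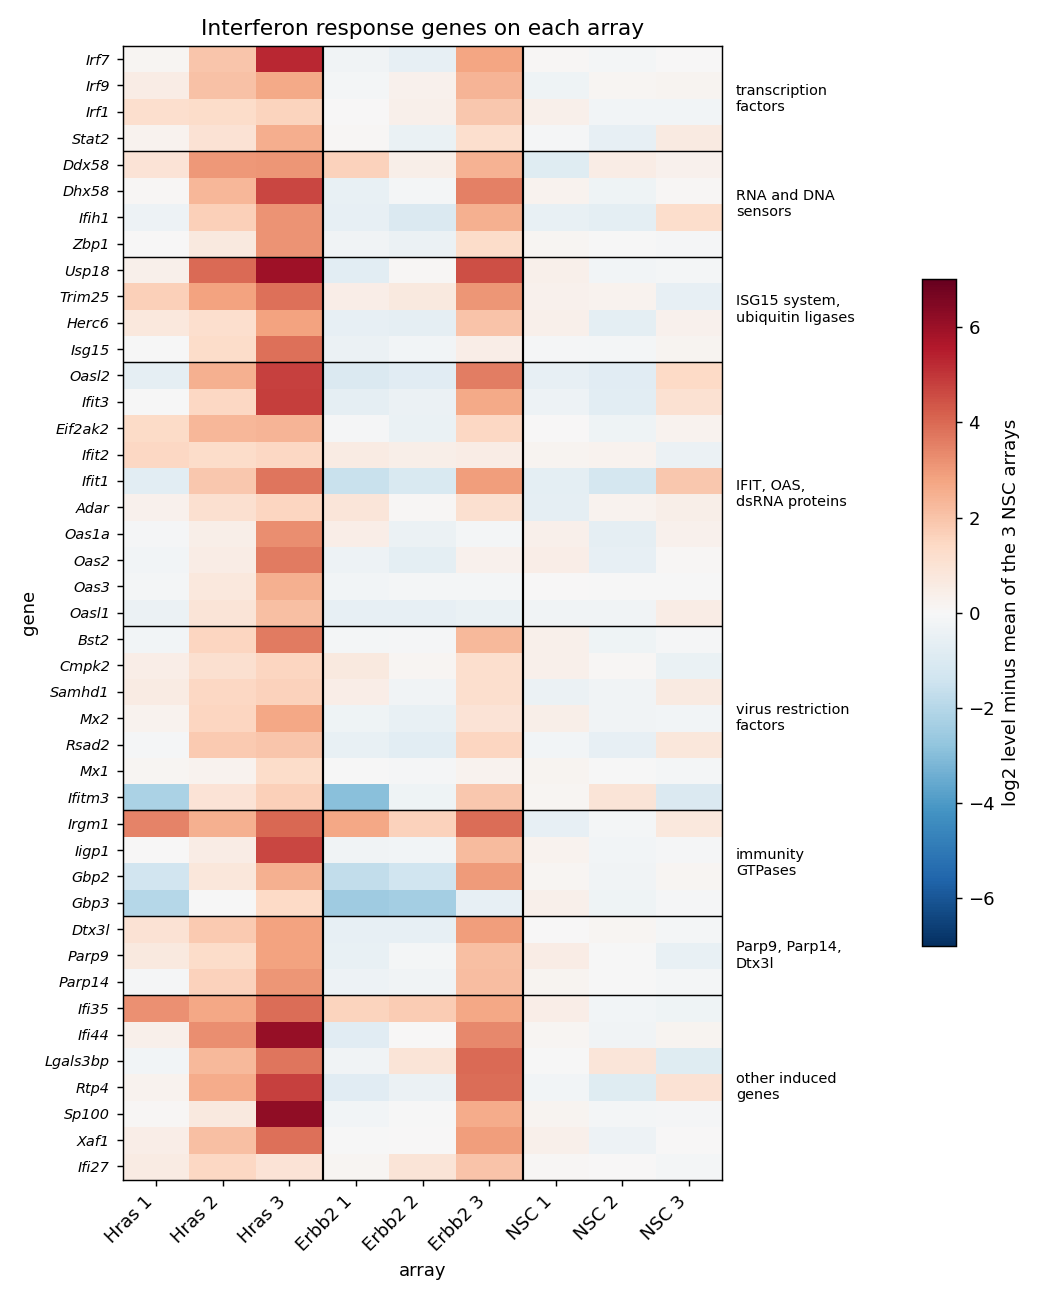
Difference of each gene's log2 level from the mean of the 3 NSC arrays (colour, log2 units), for 43 interferon response genes in rows, grouped by role, and the 9 arrays in columns. Hras 3 is the highest array for 36 of the 43 genes, and Hras 1, Erbb2 1 and Erbb2 2 lie near NSC for most of them.

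Because a line is a single array, each line was described by the genes that lay over 1 log2 unit outside the range of the 3 NSC arrays, beside the same share of all 20690 genes. Above that range were 5, 22 and 40 of the 43 genes in Hras lines 1, 2 and 3, against 3.97%, 3.52% and 4.28% of all genes. In Erbb2 lines 1, 2 and 3 the counts were 3, 1 and 28, against 3.87%, 1.88% and 3.18% of all genes. As shares of the 43 genes these are 11.6%, 51.2% and 93.0% in the Hras lines and 6.98%, 2.33% and 65.1% in the Erbb2 lines. The genes above the range in Hras line 1 were Eif2ak2, Ifi35, Ifit2, Irgm1 and Trim25, those in Erbb2 line 1 were Ddx58, Ifi35 and Irgm1, and the gene in Erbb2 line 2 was Ifi35. Below the range were 3, 0 and 0 genes in the Hras lines, against 0.855%, 0.353% and 1.32% of all genes, and 3, 2 and 0 in the Erbb2 lines, against 1.52%, 0.913% and 1.04%. These low genes were Gbp2 and Gbp3 in Hras line 1, Erbb2 line 1 and Erbb2 line 2, and Ifitm3 in Hras line 1 and Erbb2 line 1. With each array centred on its median the count above the range was 14 in Hras line 2 and 2 in Hras line 1.

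**Figure D2:**
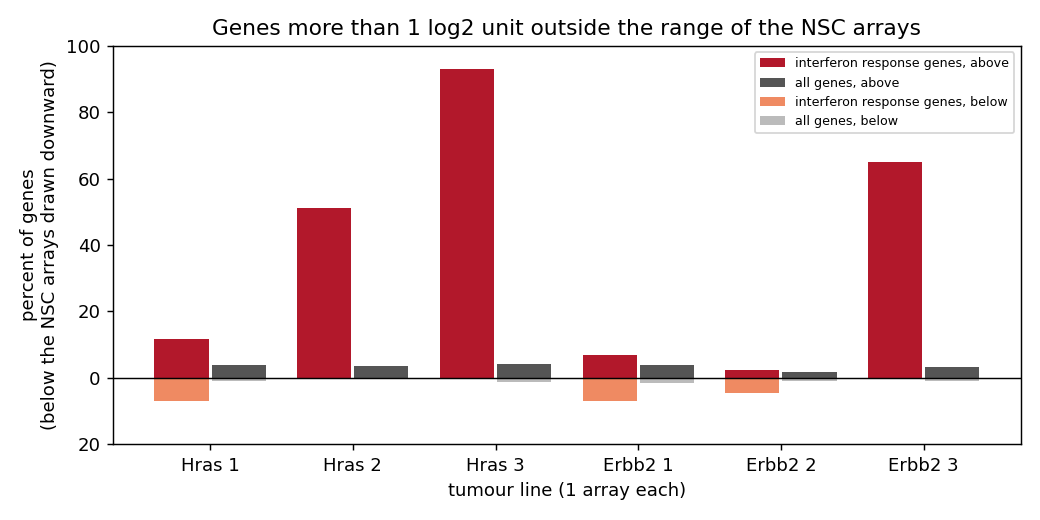
Percent of the 43 interferon response genes and of all 20690 genes that lay over 1 log2 unit above the highest NSC array (bars upward) or below the lowest NSC array (bars downward), for each tumour line. The share above is 93.0% in Hras 3, 65.1% in Erbb2 3 and 51.2% in Hras 2, and 11.6% or less in the other lines.

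The order of the arrays was much alike from gene to gene. Hras line 3 was the highest of the 9 arrays for 36 of 43 genes, against 8.19% of all genes. Erbb2 line 3 was the highest for 6, Irf1, Ifi27, Dtx3l, Gbp2, Lgals3bp and Ifitm3, and Hras line 1 for Ifit2. For 34 of 43 genes the 3 highest arrays were Hras line 2, Hras line 3 and Erbb2 line 3, against 3.98% of all genes. The range among the 3 lines of a group was over 2 log2 units for 31 genes in the Hras lines and 25 in the Erbb2 lines, against 5.24% and 5.05% of all genes. In NSC it was over 2 for 2 genes, Ifit1 and Oasl2, against 5.46% of all genes. In both, NSC 3 was the high array, and NSC 3 was the highest NSC array for 16 of 43 genes, or 37.2%, against 23.3% of all genes.

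Levels below are log2 expression levels, given for lines or cultures 1, 2 and 3 in that order. The deposited values carry no detection call, so a dim limit of 5.74 was taken from the 95th percentile of 1097 olfactory receptor rows, genes that these cells are not known to use. A level under it is not shown to be above background. Where all NSC arrays of a gene were under the limit, a fold is given against the limit itself. Tumour levels under the limit entered it as measured, so it is a lower bound only where every line of the group passed the limit.

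The 4 transcription factors of the response spread to unlike extents. Irf7, which amplifies type I interferon production, had 5.69, 7.51 and 10.82 in the Hras lines and 5.30, 4.99 and 8.34 in the Erbb2 lines, against 5.66, 5.42 and 5.61 in NSC. Irf7 was at most 0.25 apart among the NSC arrays, all of them under the dim limit, and Hras line 3 was 5.13 above Hras line 1. The mean of Irf7 in the Hras lines was 4.8-fold above the dim limit (limma adjusted p = 0.49 against NSC). In the Erbb2 lines the mean was 1.38-fold above the limit (limma adjusted p = 0.835 against NSC). Hras line 1 and Erbb2 lines 1 and 2 were themselves under the limit, so these folds are not lower bounds. Irf9, the DNA-binding partner of Stat2, had 7.60, 9.13 and 9.72 in the Hras lines and 6.94, 7.36 and 9.45 in the Erbb2 lines, against 6.75, 7.19 and 7.28 in NSC. Stat2 itself had 7.39, 8.15 and 9.68 in the Hras lines and 7.21, 6.66 and 8.33 in the Erbb2 lines, against 7.05, 6.59 and 7.80 in NSC. The Hras lines overlapped NSC for Stat2, whose level in NSC 3 was above that in Hras line 1. Irf1, a factor of the type II response, had 8.30, 8.40 and 8.69 in the Hras lines and 7.11, 7.46 and 8.99 in the Erbb2 lines, against 7.49, 6.94 and 6.91 in NSC. All Hras lines lay above all NSC arrays for Irf1, and they were within 0.39 of each other.

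The sensors of nucleic acids include 3 RNA helicases of one family. Ddx58, which encodes the viral RNA sensor RIG-I, had 8.31, 10.38 and 10.44 in the Hras lines and 8.93, 7.75 and 9.80 in the Erbb2 lines, against 6.50, 7.87 and 7.66 in NSC. Erbb2 line 1, near NSC for most other genes, was above all NSC arrays for Ddx58. Ifih1, which encodes the sensor MDA5, had 5.52, 7.55 and 9.07 in the Hras lines and 5.34, 4.91 and 8.38 in the Erbb2 lines, against 5.37, 5.23 and 7.11 in NSC. Dhx58, the regulator LGP2 of the other two, had 5.36, 7.58 and 9.93 in the Hras lines and 4.74, 5.15 and 8.79 in the Erbb2 lines, against 5.49, 4.96 and 5.35 in NSC. For Ifih1, NSC 3 was above Hras line 1 and Erbb2 lines 1 and 2, while all NSC arrays of Dhx58 were under the dim limit. The mean of Dhx58 in the Hras lines was 3.68-fold above the dim limit (limma adjusted p = 0.51 against NSC). Hras line 1 was itself under the limit, so this fold is not a lower bound. Zbp1, a sensor of nucleic acids in the Z form that can start cell death, had 5.99, 6.60 and 9.07 in the Hras lines and 5.71, 5.51 and 7.22 in the Erbb2 lines, against 6.06, 5.89 and 5.85 in NSC.

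Isg15 is a ubiquitin-like protein that is attached to other proteins, and Usp18 removes it and also blocks signalling from the type I receptor. Usp18 had 6.62, 10.18 and 12.20 in the Hras lines and 5.48, 6.30 and 10.73 in the Erbb2 lines, against 6.59, 6.05 and 6.09 in NSC, and its range over the 9 arrays was 6.72. Isg15, whose promoter is shown above, had 5.28, 6.59 and 9.18 in the Hras lines and 4.93, 5.13 and 5.77 in the Erbb2 lines, against 5.27, 5.20 and 5.52 in NSC. The pair parted in Erbb2 line 3, where Usp18 was 4.14 above the highest NSC array and Isg15 was 0.25 above it. Herc6, the main ligase for Isg15 in the mouse, had 6.88, 7.27 and 8.96 in the Hras lines and 5.52, 5.51 and 8.11 in the Erbb2 lines, against 6.47, 5.46 and 6.42 in NSC. Trim25, a ubiquitin ligase that acts on RIG-I, had 7.32, 8.51 and 9.55 in the Hras lines and 6.13, 6.36 and 8.74 in the Erbb2 lines, against 5.96, 5.93 and 5.11 in NSC. All 6 tumour lines lay above all NSC arrays for Trim25, and the mean of the tumour groups was above NSC by 2.10 (SE 0.64, limma adjusted p = 0.27).

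**Figure D3:**
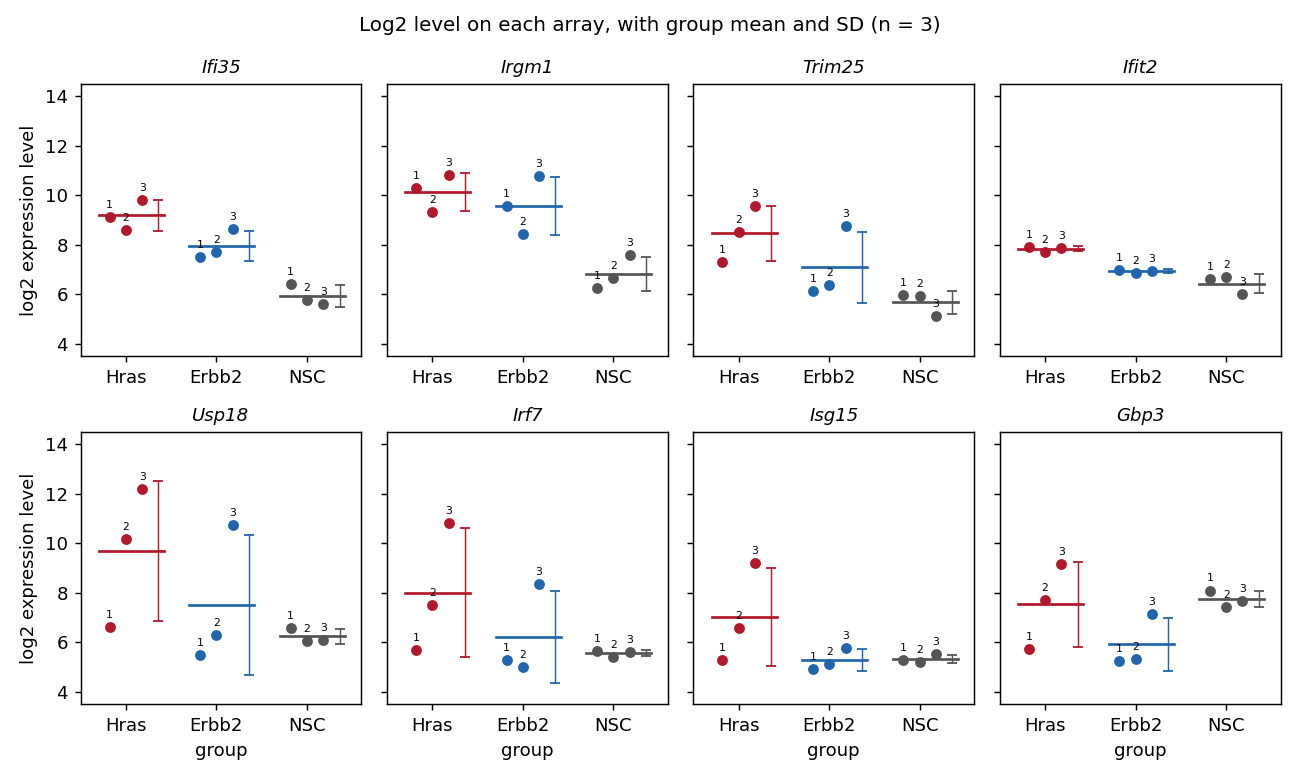
Log2 level of 8 interferon response genes on each array (points, labelled with the line or culture number), with the group mean (line) and SD (bar, n = 3). For Ifi35, Irgm1, Trim25 and Ifit2 all 6 tumour lines lie above all NSC arrays, while for Usp18, Irf7 and Isg15 Hras 1 lies near NSC and Hras 3 far above it, and for Gbp3 Hras 1, Erbb2 1 and Erbb2 2 lie below NSC.

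IFIT proteins bind viral RNA that lacks host caps, and OAS enzymes make the second messenger that activates RNase L. Ifit3 had 5.69, 7.16 and 10.56 in the Hras lines and 5.09, 5.31 and 8.36 in the Erbb2 lines, against 5.38, 4.98 and 6.75 in NSC. Its neighbour Ifit2 on chromosome 19 had 7.89, 7.71 and 7.88 in the Hras lines and 6.99, 6.86 and 6.95 in the Erbb2 lines, against 6.61, 6.69 and 6.00 in NSC. The Ifit2 levels lay within 0.19 among the Hras lines and 0.13 among the Erbb2 lines, where those of Ifit3 ranged over 4.87 and 3.27. Ifit1, from the same gene cluster, ranged from 5.23 to 9.70 in the Hras lines and from 4.43 to 8.93 in the Erbb2 lines, against 4.76 to 7.88 in NSC, with NSC 3 as the high NSC array. The files do not show whether the probes tell these related genes apart.

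Members of the OAS family split in Erbb2 line 3. Oasl2, an OAS-like protein, had 5.95, 9.07 and 11.35 in the Hras lines and 5.57, 5.74 and 10.15 in the Erbb2 lines, against 5.97, 5.74 and 7.98 in NSC. Its chromosomal neighbour Oasl1, which represses translation of Irf7, had 6.78, 8.11 and 9.28 in the Hras lines and 6.60, 6.64 and 6.72 in the Erbb2 lines, against 6.95, 6.94 and 7.69 in NSC. Oasl2 in Erbb2 line 3 was 2.17 above the highest NSC array, while Oasl1 in that line was below all NSC arrays. The 3 genes Oas1a, Oas2 and Oas3 were at 8.56, 9.22 and 7.98 in Hras line 3 and at 5.22, 5.90 and 5.34 in Erbb2 line 3, against 4.70 to 5.66, 5.03 to 6.08 and 5.46 to 5.53 in NSC. Erbb2 line 3 was thus within the NSC range for Oas2 and Oas1a and just below it for Oas3. For Oas1a and Oas3, Erbb2 line 3 and all NSC arrays were under the dim limit. Eif2ak2, the kinase PKR that halts translation, had 7.50, 8.49 and 8.54 in the Hras lines and 6.11, 5.73 and 7.64 in the Erbb2 lines, against 6.20, 5.89 and 6.45 in NSC, so that all Hras lines lay above all NSC arrays. The RNA-editing enzyme Adar ranged from 8.02 to 9.21 in the Hras lines and from 7.77 to 8.84 in the Erbb2 lines, against 7.08 to 8.09 in NSC.

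Restriction factors act on viral entry, replication and release. Bst2, also called tetherin, which holds budding virus at the cell surface, had 6.67, 8.35 and 10.51 in the Hras lines and 6.70, 6.79 and 9.11 in the Erbb2 lines, against 7.24, 6.56 and 6.77 in NSC. Cmpk2, a mitochondrial nucleotide kinase, had 6.77, 7.44 and 7.82 in the Hras lines and 6.98, 6.44 and 7.51 in the Erbb2 lines, against 6.70, 6.40 and 5.86 in NSC, and Samhd1, which depletes nucleotides, had 7.96, 8.81 and 9.01 in the Hras lines and 7.83, 7.12 and 8.54 in the Erbb2 lines, against 6.96, 7.16 and 8.03 in NSC. All Hras lines lay above all NSC arrays for Cmpk2, and NSC 3 was above Hras line 1 for Samhd1. Rsad2, the antiviral enzyme viperin and neighbour of Cmpk2 on chromosome 12, ranged from 6.39 to 8.38 in the Hras lines and 5.69 to 7.94 in the Erbb2 lines, against 5.86 to 7.25 in NSC. Ifitm3, which blocks fusion of viral membranes, had 9.11, 12.26 and 12.99 in the Hras lines and 8.39, 11.03 and 13.18 in the Erbb2 lines, against 11.42, 12.20 and 10.32 in NSC. Hras line 1 and Erbb2 line 1 lay under all NSC arrays, and Hras lines 2 and 3 and Erbb2 line 3 above all of them. The dynamin-like GTPases Mx1 and Mx2 block the replication of RNA viruses. Mx1 passed the dim limit on 1 array, Hras line 3 at 6.02, and Mx2 on 2, Hras lines 2 and 3 at 6.15 and 7.33.

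Immunity GTPases attack the vacuoles of intracellular parasites and are known mainly as targets of type II interferon. Irgm1, a regulator of the family, had 10.29, 9.32 and 10.83 in the Hras lines and 9.56, 8.42 and 10.76 in the Erbb2 lines, against 6.24, 6.67 and 7.58 in NSC. Every tumour line lay above every NSC array for Irgm1, with the smallest gap, 0.84, between Erbb2 line 2 and NSC 3. Iigp1 had 4.39, 4.90 and 9.05 in the Hras lines and 4.11, 4.17 and 6.58 in the Erbb2 lines, against 4.64, 4.20 and 4.30 in NSC, and it passed the dim limit in Hras line 3 and Erbb2 line 3 only. Gbp2, a guanylate-binding protein, had 4.82, 6.95 and 8.66 in the Hras lines and 4.45, 4.77 and 9.15 in the Erbb2 lines, against 6.28, 5.95 and 6.28 in NSC. Its neighbour Gbp3 on chromosome 3 had 5.74, 7.72 and 9.15 in the Hras lines and 5.26, 5.34 and 7.16 in the Erbb2 lines, against 8.09, 7.43 and 7.68 in NSC. For both genes Hras line 1, Erbb2 line 1 and Erbb2 line 2 were over 1 log2 unit below the lowest NSC array, which was so for 0.855% to 1.52% of all genes in those lines. The Gbp2 levels of these lines, and the Gbp3 levels of Erbb2 lines 1 and 2, were under the dim limit, so the size of these drops is uncertain.

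Parp9, Parp14 and Dtx3l lie side by side on chromosome 16. Parp9 and Dtx3l form a complex that modifies proteins by ubiquitin and ADP-ribose, and Parp14 transfers ADP-ribose. Parp9 had 7.06, 7.66 and 9.16 in the Hras lines and 5.84, 6.22 and 8.49 in the Erbb2 lines, against 6.91, 6.33 and 5.86 in NSC. Dtx3l had 7.12, 7.96 and 8.91 in the Hras lines and 5.55, 5.52 and 9.06 in the Erbb2 lines, against 6.16, 6.22 and 5.96 in NSC, and Parp14 had 5.17, 6.90 and 8.33 in the Hras lines and 4.88, 5.01 and 7.42 in the Erbb2 lines, against 5.43, 5.21 and 5.13 in NSC. All Hras lines lay above all NSC arrays for Parp9 and Dtx3l, in which the Erbb2 lines spanned 2.66 and 3.54 log2 units. The NSC arrays of Parp14 were all under the dim limit.

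The remaining genes have varied roles, and Ifi35 lay apart from NSC in every glioma line. Ifi35, a leucine zipper protein that modulates RIG-I signalling, had 9.11, 8.61 and 9.82 in the Hras lines and 7.50, 7.72 and 8.62 in the Erbb2 lines, against 6.42, 5.75 and 5.61 in NSC. It was above the highest NSC array by at least 1.08 in each tumour line, with NSC 3 under the dim limit. Ifi27, a mitochondrial protein, had 8.90, 9.79 and 9.27 in the Hras lines and 8.48, 9.22 and 10.34 in the Erbb2 lines, against 8.43, 8.38 and 8.22 in NSC, also with each tumour line above each NSC array. Ifi44 and Lgals3bp varied more. Ifi44 had 5.80, 8.68 and 11.52 in the Hras lines and 4.63, 5.48 and 8.78 in the Erbb2 lines, against 5.55, 5.16 and 5.60 in NSC, and was at least 7.58-fold higher in the Hras lines than in NSC on average (limma adjusted p = 0.401). Lgals3bp, a secreted glycoprotein that binds galectins, had 7.95, 10.39 and 11.89 in the Hras lines and 7.90, 9.02 and 12.08 in the Erbb2 lines, against 8.10, 8.98 and 7.28 in NSC. Of the last 3 genes, the nuclear body protein Sp100 ranged from 4.60 in Hras line 1 to 10.70 in Hras line 3, against 4.38 to 4.68 in NSC. Xaf1, a promoter of apoptosis, reached 8.97 in Hras line 3 and 8.08 in Erbb2 line 3, against at most 5.51 in NSC. Rtp4, a chaperone of membrane receptors, reached 10.83 and 9.98 in the same lines, against 5.22 to 7.09 in NSC.

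The groups were compared by a limma fit of group means over all 20690 genes, with a gene called at a Benjamini-Hochberg adjusted p under 0.05. The first question was which of the genes set the tumour lines as a whole apart from NSC. With the 2 tumour groups averaged and set against NSC, 1 of the 43 genes, Ifi35, rose and 0 fell, where 0.256% of all genes rose. Ifi35 was at 8.56 ± 0.86 in the tumour lines (SD, n = 6) and 5.93 ± 0.44 in NSC (SD, n = 3) and its change was 2.63 (SE 0.35, limma adjusted p = 0.0321). The next smallest adjusted p belonged to Irgm1, with 9.86 ± 0.94 in the tumour lines (SD, n = 6) and 6.83 ± 0.69 in NSC (SD, n = 3) and a change of 3.03 (SE 0.54, limma adjusted p = 0.0655), and to Ifit2, with a change of 0.95 (SE 0.19, limma adjusted p = 0.112). All 6 tumour lines lay above all NSC arrays for 5 genes, Ifi27, Ifi35, Ifit2, Irgm1 and Trim25, or 11.6% of the 43 genes, against 2.87% of all genes. The change was positive for 41 of 43 genes, with a median of 1.02 log2 units, against 51.4% of all genes and a median of 0.01, and 10 of the 43 had an unadjusted p under 0.05, against 10.0% of all genes. The call of Ifi35 was lost without Hras line 1 or 2, Erbb2 line 1 or any 1 NSC array, with adjusted p from 0.0532 to 0.185, and after quantile normalization (0.0528), centring of arrays (0.0573) or a fit over all probe sets (0.0618). Irgm1 passed the threshold without Erbb2 line 2 (adjusted p = 0.0454).

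The Hras lines set against NSC gave 0 called genes among the 43, where the share of all genes called higher was 0.0%. The change was positive for 42 of 43 genes and its median was 1.59, against 68.5% of all genes and a median of 0.16, and 15 of the 43 had an unadjusted p under 0.05, against 2481 of the 20690 genes. Ifi35 differed by 3.25 (SE 0.40, limma adjusted p = 0.071), Ifit2 by 1.40 (SE 0.22, limma adjusted p = 0.081) and Irgm1 by 3.32 (SE 0.62, limma adjusted p = 0.094). Usp18, with the largest mean difference of the 43, 3.42, had an SE of 1.54 (adjusted p = 0.429), and its 3 lines spanned 5.58 log2 units. All Hras lines lay above all NSC arrays for 17 of 43 genes, against 11.9% of all genes. The median was 0.90 without Hras line 3. Ifi35 passed the threshold without Erbb2 line 1 or 3 or NSC 1, at adjusted p of 0.0438, 0.0305 and 0.0343, with array weights (0.0413) and in a fit of only the groups compared (0.0461). Ifit2 passed it with array weights (0.0413).

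The Erbb2 lines set against the same NSC arrays likewise gave 0 called genes among the 43, where 0.00483% of all genes were called higher. The change was positive for 35 of 43 genes with a median of 0.55, against 36.7% of all genes and a median of -0.14, and 4 of the 43 had an unadjusted p under 0.05, against 9.23%. Irgm1 differed by 2.75 (SE 0.62, limma adjusted p = 0.193), Ifi35 by 2.02 (SE 0.40, limma adjusted p = 0.145) and Gbp3 by -1.82 (SE 0.80, limma adjusted p = 0.538). All Erbb2 lines lay above all NSC arrays for Ifi27, Ifi35, Ifit2, Irgm1 and Trim25, 5 genes, against 5.09% of all genes. Without Erbb2 line 3 the median turned to -0.30.

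Whether the lines of the 2 oncogenes differed was asked by Hras minus Erbb2, in which 0 of 43 genes were called and the share of all genes called higher was 0.0%. The change was positive for 42 of 43 genes with a median of 1.17, against 78.8% of all genes and a median of 0.29, and 5 of the 43 had an unadjusted p under 0.05, against 12.7%. All Hras lines lay above all Erbb2 lines for 2 of 43 genes, Ifit2 and Oasl1, which is fewer than the 25.6% of all genes. Ifit2 was at 7.83 ± 0.10 in the Hras lines and 6.93 ± 0.07 in the Erbb2 lines (SD, n = 3 each), a difference of 0.89 (SE 0.22, limma adjusted p = 0.391). The median was 0.41 without Hras line 3, 1.84 without Hras line 1 and 1.86 without Erbb2 line 3.

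The upstream parts of the pathway were read from the same arrays. For the averaged tumour groups minus NSC, 0.256% of all genes were called higher and 51.4% had a positive change. All 6 tumour lines lay above all NSC arrays for 2.87% of all genes. None of 12 interferon genes was called, and the median change of the averaged tumour groups was -0.09. Ifnb1, which encodes interferon beta, had 4.88, 5.22 and 4.83 in the Hras lines and 4.72, 4.64 and 4.53 in the Erbb2 lines, against 5.10, 4.66 and 4.75 in NSC, under the dim limit on every array, Hras line 3 and Erbb2 line 3 included. Of the 12 genes, 6 were under the limit on all arrays, while Ifna5, at 6.82 to 7.64, and Ifnl3, at 6.68 to 7.23, were above it on all arrays. Ifna1 was above it on 4 arrays and Ifna2 on 5. Ifna5 and Ifna9 differed most from NSC, by -0.41 (SE 0.18, limma adjusted p = 0.499) and -0.18 (SE 0.22, limma adjusted p = 0.829). Among 11 receptor and Jak-Stat genes 0 were called, with a median of 0.58, and 9 of the 11 had a positive change. Ifnar1 had 9.55, 9.67 and 9.35 in the Hras lines and 9.05, 9.03 and 9.89 in the Erbb2 lines, against 9.81, 9.63 and 9.10 in NSC. Ifnar2 had 10.15, 10.05 and 10.24 in the Hras lines and 10.09, 10.14 and 10.84 in the Erbb2 lines, against 8.96, 9.41 and 9.30 in NSC, with each tumour line above each NSC array and a difference of 1.03 (SE 0.22, limma adjusted p = 0.122).

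Among 15 genes of the adaptors and sensors that induce interferon, 2 rose in the mean of both tumour groups and 0 fell, with a median of 0.34. Of all genes, 0.256% rose in that comparison. Tlr3, the endosomal sensor of double-stranded RNA, had 9.07, 9.41 and 8.97 in the Hras lines and 8.88, 8.47 and 9.44 in the Erbb2 lines, against 6.57, 7.63 and 6.74 in NSC and rose by 2.06 (SE 0.30, limma adjusted p = 0.0405). Tmem173, which encodes the DNA-sensing adaptor STING, had 11.21, 12.07 and 10.57 in the Hras lines and 11.62, 10.81 and 12.27 in the Erbb2 lines, against 9.16, 9.02 and 7.72 in NSC and rose by 2.79 (SE 0.46, limma adjusted p = 0.0488). For both genes the 6 tumour lines lay above NSC, including Hras line 1, Erbb2 line 1 and Erbb2 line 2, which were near NSC for most interferon response genes. The 6 tumour lines all lay above NSC for 2.87% of all genes. Among the tumour lines Erbb2 line 2 was the lowest for Tlr3, and Hras line 3 was the lowest for Tmem173. Both calls were lost after quantile normalization, after centring, over all probe sets and without any 1 array of Hras line 1, 2 or 3, Erbb2 line 1 or NSC 1, 2 or 3, with adjusted p up to 0.111 for Tlr3 and 0.208 for Tmem173. The Tmem173 call was also lost without Erbb2 line 2 (0.0508) or 3 (0.0597), and with the line numbers as a replicate block (0.0663). Irf8, an interferon regulatory factor known from myeloid cells, had 9.63, 8.18 and 7.46 in the Hras lines and 9.81, 8.86 and 6.90 in the Erbb2 lines, against 6.74, 6.37 and 6.18 in NSC, an order of lines opposite to that of most of the 43 genes, and differed by 2.04 (SE 0.64, limma adjusted p = 0.28).

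**Figure D4:**
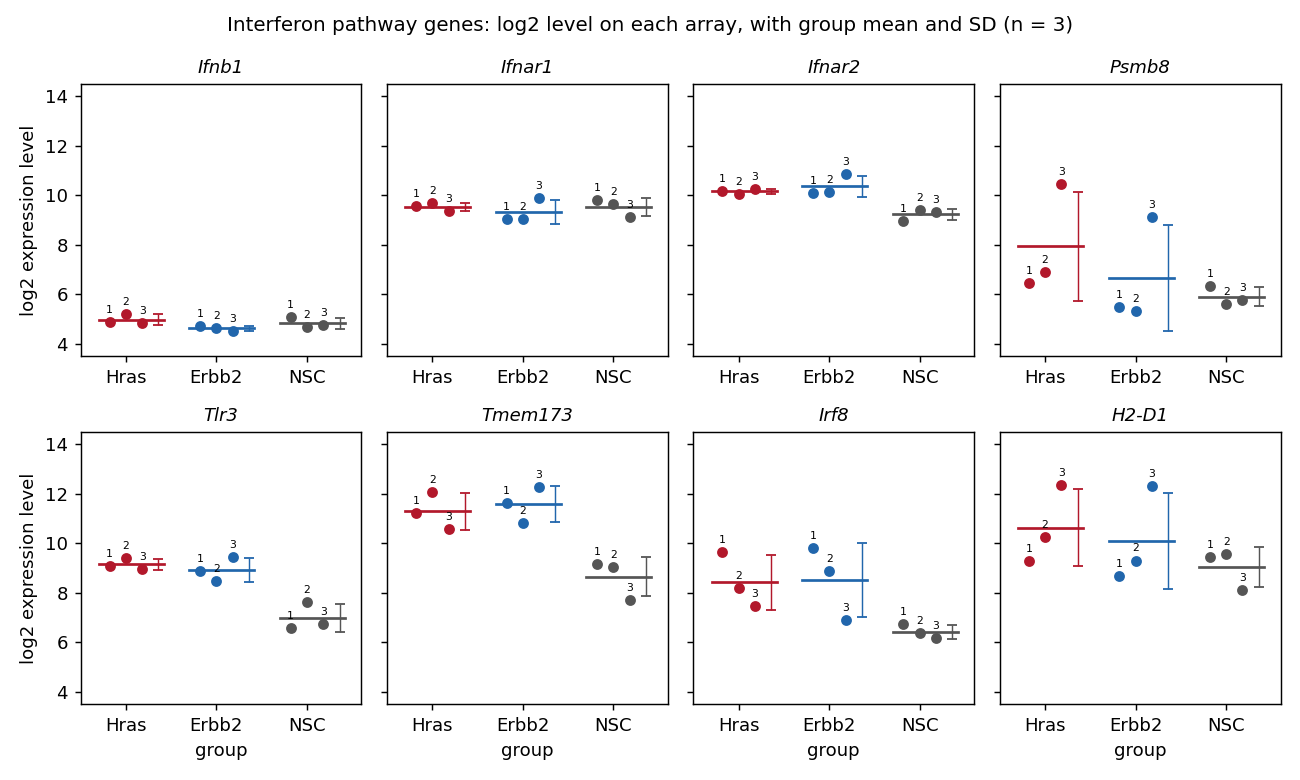
Log2 level of 8 genes of the interferon pathway and of antigen presentation on each array (points, labelled with the line or culture number), with the group mean (line) and SD (bar, n = 3). Ifnb1 stays under 5.74 on every array, Tlr3 and Tmem173 are above NSC in all 6 tumour lines, and H2-D1 is highest in Hras 3 and Erbb2 3.

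Of 9 negative regulators 0 were called (median 0.45), and Ptpn6 and Irf2 differed most, by 1.15 (SE 0.65, limma adjusted p = 0.61) and 0.59 (SE 0.35, limma adjusted p = 0.627). Among 26 further interferon-induced genes 0 were called, with a median of 0.57 and 23 positive changes, where 51.4% of all genes had a positive change. Ifi204 had 5.13, 8.0 and 11.50 in the Hras lines and 4.53, 5.10 and 9.45 in the Erbb2 lines, against 5.09, 4.68 and 5.52 in NSC and differed by 2.19 (SE 1.40, limma adjusted p = 0.659). Trim30a had 4.56, 5.85 and 11.56 in the Hras lines and 4.81, 4.77 and 10.71 in the Erbb2 lines, against 5.34, 5.28 and 4.94 in NSC and differed by 1.86 (SE 1.68, limma adjusted p = 0.777). Both were high in Hras line 3 and Erbb2 line 3, while Hras line 2 was at 8.0 for Ifi204 and 5.85 for Trim30a. Of 11 genes of MHC class I presentation, some of them also in the last list, 0 were called (median 0.73), and H2-D1 had 9.29, 10.25 and 12.33 in the Hras lines and 8.69, 9.30 and 12.32 in the Erbb2 lines, against 9.45, 9.56 and 8.10 in NSC, with Psmb8 at 10.45 in Hras line 3 and 9.13 in Erbb2 line 3, against 5.62 to 6.33 in NSC.

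The cultures were checked against markers of neural stem cells and of other cells. Of 12 neural stem cell markers 10 were above the dim limit on all arrays, Fabp7, Vim and Sox2 among them. Of 20 microglia and macrophage markers 2, Trem2 and Cd68, were above it on all arrays, and Ptprc, Aif1, Emr1, C1qb and Cd52 on none, Hras line 3 and Erbb2 line 3 included. Other markers of that list were highest in these lines. In Hras line 3 Laptm5 was at 7.50 and Tmem119 at 7.64, against 5.16 to 5.60 and 5.68 to 6.32 in NSC. In Erbb2 line 3 Cd14 was at 7.22 and Lyz2 at 6.80, against 4.98 to 6.09 and 4.50 to 5.31 in NSC, and the part of such cells in the levels of both lines was not tested. The mean level of these 20 markers was 5.55 to 5.98 in the Hras lines and 5.31 to 5.48 in the Erbb2 lines, against 5.27 to 5.76 in NSC. Of 10 lymphocyte markers 5 and of 8 endothelial markers 2 were under the limit on all arrays, and their mean levels were 4.81 to 5.55 and 5.11 to 6.33 in the tumour lines, against 4.96 to 5.38 and 5.32 to 5.89 in NSC. In Hras line 2, 13 of the 20 microglia and macrophage markers, 4 of the 10 lymphocyte and 6 of the 8 endothelial markers were above the limit, against 9, 4 and 3 in NSC 1, and their part in the levels of Hras line 2 was not tested. In Hras line 3 these counts were 8, 1 and 3 and in Erbb2 line 3 they were 5, 1 and 2. The median level of all genes differed between arrays, and was 6.98 to 7.19 in the Hras lines and 6.56 to 6.73 in the Erbb2 lines, against 6.56 to 6.81 in NSC.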

How the data were processed

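RNA of 9 sorted cultures was hybridised to 1 array each. The authors deposited log2 expression levels per gene and linear intensity values for 35512 probe sets. How they corrected background and normalized these is not given in the labels used here, and array medians differ. Of the named genes, 20106 equal the log2 intensity of 1 probe set within 0.0001, all 43 genes described here among them. Rows with a number in place of a symbol (25) were left out. Group means were fitted over 20690 genes with limma 3.58.1 in R 4.3.3 (lmFit, eBayes), p-values were adjusted by Benjamini-Hochberg over all genes, and the fit was tested on simulated data. The members and gene lists were chosen with earlier results of these data known. Values on every array are given for members called in any contrast and, per role, for the 3 members with the largest and the 1 with the smallest difference of the tumour mean from NSC. Ifit2 was added to these after its values were seen. Of other pathway lists, called genes and the 2 with the largest change are named, and always Ifnb1, Ifnar1 and Ifnar2, while 1 further gene of that rule is not reported here. Irf8, with its order of lines, and the cell markers given with values were chosen after their values were seen. The number of arrays limits the precision. Promoters are from RefSeq, GRCm38.p6. Alternatives were other scalings, filters, blocks, weights, trends, margins and leaving out each array.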

Additional observations from a re-analysis of the deposited data

How the results depend on the processing

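The members' median kept its sign in all comparisons under every scaling, weighting and blocking tried, and turned to -0.30 for Erbb2 minus NSC without Erbb2 line 3. Without 1 array it ran between 0.90 and 2.34 for Hras minus NSC, -0.30 and 0.95 for Erbb2 minus NSC, 0.41 and 1.86 for Hras minus Erbb2, and 0.70 and 1.32 for the tumour groups averaged (the mean) minus NSC. Calls were less stable. Deviations from the group means correlated between same-numbered Hras and Erbb2 lines at 0.339 (line 1), -0.344 (line 2) and 0.441 (line 3). With the same-numbered NSC arrays they correlated between -0.224 and 0.251. Whether line numbers pair the samples is not settled by these values. The replicate block called 1 member in Hras minus NSC, 1 in Erbb2 minus NSC and 2 in the mean, Irgm1 in each and Ifi35 in the mean. In Hras minus NSC array weights called 2 members, a fit of only the groups compared called 1, and leaving out 1 array 0 to 1. In the mean, quantile normalization, centring and all probe sets called 0 members, and leaving out 1 array 0 to 2. All genes called in Hras minus NSC numbered 2 after quantile normalization, 1 after centring, 9 with the replicate block, 70 with array weights, 20 with only the groups compared and 0 to 76 without 1 array, against 0. In Erbb2 minus NSC they numbered 1 after quantile normalization, 4 without dim genes, 27 with the replicate block, 37 with array weights, 7 with an intensity trend, 8 with only the groups compared, 0 over all probe sets and 0 to 13 without 1 array, against 2. In the mean they numbered 12 after quantile normalization, 23 after centring, 19 over all probe sets and 0 (without NSC 2) to 70 without 1 array, against 73. A margin of 0.5 put 3 genes above NSC in Erbb2 line 2, and a margin of 2 put 2 in Hras line 1, 7 in Hras line 2, 0 in Erbb2 lines 1 and 2 and 15 in Erbb2 line 3. Quantile normalization and centring each left 2 in Hras line 1, and centring left 14 in Hras line 2. Differences of the mean that changed sign were Oasl1 (-0.02 after centring, -0.14 to 0.48 without 1 array), Oas2 (-0.03 to 0.92), Gbp2 (-0.46 to 0.79), Ifitm3 (-0.73 to 0.47), Ifnar1 (-0.30 to 0.06) and Ifnb1 (0.07 after quantile normalization, 0.05 with array weights, -0.12 to 0.10 without 1 array). The cause was not tested. The number that opens each description is 1, 2 and 3 in the lines of each oncogene and 4, 4 and 5 in NSC. Its part cannot be told apart from the difference between tumour lines and NSC, in which Ifi35 was called. It could serve as a block only in Hras minus Erbb2, where 0 genes were called with or without it.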
